A study of Mus musculus with 8 samples.

Results

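Claudins are the membrane proteins that span neighbouring epithelial cells at the tight junction and decide which ions can pass between the cells. The 10 claudin genes of the nephron segments described here are Cldn1, Cldn2, Cldn3, Cldn4, Cldn7, Cldn8, Cldn10, Cldn14, Cldn16 and Cldn19. They were taken by gene symbol, each from the brightest probe set that names that symbol alone, and all 10 were measured among 19938 genes in all. The data come from the kidney cortex of 10-week-old male C57Bl6J mice, with 4 arrays from wild-type littermates (WT) and 4 from mice lacking SPAK (SPAK KO), the kinase encoded by Stk39. Both genotypes ate the same feed, with 0.32% NaCl and 1% KCl, and drank freely. The labels name no other allele or agent, and do not say which part of Stk39 was disrupted or in which cells. SPAK phosphorylates the NaCl and Na-K-2Cl cotransporters. The study set out to find sets of genes whose joint change could offset the loss of salt in its absence. Values are log2 expression values, so a difference of 1 is a doubling, and differences are SPAK KO minus WT.

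Along the nephron, each segment makes its own mixture of claudins. Cldn2 forms a cation and water pore in the proximal tubule, and Cldn10 is made as a proximal, anion-selective form and a thick ascending limb, cation-selective form. Cldn16 and Cldn19 together carry magnesium and calcium across the thick ascending limb, and Cldn14 blocks that route when the calcium-sensing receptor is active. Cldn3, Cldn4, Cldn7 and Cldn8 belong chiefly to the distal nephron and collecting duct, where Cldn4 and Cldn8 form a chloride route that accompanies sodium reabsorption, and Cldn1 marks the parietal cells of the Bowman capsule.

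Some facts of the whole series bear on every value. Stk39 read 8.11 to 8.60 on the WT arrays and 6.79 to 7.21 on the SPAK KO arrays (−1.38 ± 0.11, SE). The SPAK KO arrays resembled each other unusually closely. Among 6297 genes with a mean above 8, only 1 to 10 differed by more than 0.4 between any pair of SPAK KO arrays and 3 between WT 2 and WT 3, against 119 to 228 in the 5 other WT pairs. The labels call each array a separate mouse and give no shared RNA. WT levels below count WT 2 and WT 3 as 1 sample (mean ± SD, n = 3), and SPAK KO levels carry no SD. Fits over all 8 arrays therefore use a spread between arrays that may partly be technical. The arrays' medians over all probe sets were 6.13 to 6.19 in WT and 6.09 to 6.12 in SPAK KO. Centring each array on its median moved the median difference of all genes from −0.01 to 0.05 and the higher share of all called genes from 67.1% to 88.4%.

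The nephron segments were present in these samples, with marker lists of the 5 tubule segments and cell types used below averaging between 8.98 and 12.48 on every array. Lists of other cells were read too. The medulla list, with 3 of 5 genes measured, averaged 6.67 to 6.74 in WT and 6.60 to 6.69 in SPAK KO. Of the 3, 0 were called (Slc14a2 −0.21, Cryab 0.14). Slc14a2 and S100a4 were dim, below the arrays' medians. Cryab was bright, at 9.33 to 9.63 in WT and 9.66 to 9.70 in SPAK KO, higher on every SPAK KO array. The urothelium, the lining of the renal pelvis, also makes claudins, and its list averaged 5.74 to 5.92 and 5.70 to 5.82, below the arrays' medians, with 0 of 7 called (Krt5 −0.19, Upk1b 0.10). The podocyte list averaged 7.80 to 7.87 and 7.90 to 8.0, with 0 of 4 called (Wt1 0.17, Nphs1 0.15). The perirenal fat list averaged 6.1 to 6.33 and 6.35 to 6.46, with 1 of 4 called higher (Retn 0.31, in 0 of the 8 refits that each dropped 1 array). The part of medullary, podocyte and fat RNA in the claudin values was not tested. Whole cortex was measured, so more RNA per cell and more cells of a type cannot be told apart.

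Over the 10 claudins, 2 rose in SPAK KO, Cldn4 and Cldn16, 0 fell and 8 did not pass (limma, Benjamini-Hochberg adjusted p under 0.05 over all genes). Of all genes, 1.39% were called higher, 0.682% lower and 2.08% in either direction. The counts of called genes in every list below are to be set beside these shares. The groups did not overlap for 5 claudins, Cldn3, Cldn4, Cldn10, Cldn16 and Cldn19, each higher on every SPAK KO array, while 6.9% of all genes were higher in that way and 5.71% lower. The median difference of the 10 was 0.16, beside −0.01 for all genes, and 8 of the 10 differences were above 0, as were 45.8% of all genes. The largest difference was a 1.38-fold rise, so every claudin difference was small on the fold scale.

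The sequences just before the transcription starts of the called claudins, Cldn4 and Cldn16, are shown here with those of Cldn3, which lies next to Cldn4 in the genome, and Cldn19, which works in a pair with Cldn16. They are the 250 bases before the start in RefSeq's GRCm38.p6 table, 5′ to 3′ on the gene's strand, Cldn4 at chr5:134946935-134947184 (minus strand), Cldn3 at chr5:134985964-134986213 (plus), Cldn16 at chr16:26462885-26463134 (plus) and the first of a pair of overlapping Cldn19 entries at chr4:119255191-119255440 (plus). Capitals mark motif matches.
Cldn4: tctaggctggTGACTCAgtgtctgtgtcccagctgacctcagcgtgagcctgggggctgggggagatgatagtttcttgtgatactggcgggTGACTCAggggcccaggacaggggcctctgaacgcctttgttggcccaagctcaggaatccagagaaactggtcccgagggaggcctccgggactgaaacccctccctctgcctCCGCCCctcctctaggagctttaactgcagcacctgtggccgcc
Cldn3: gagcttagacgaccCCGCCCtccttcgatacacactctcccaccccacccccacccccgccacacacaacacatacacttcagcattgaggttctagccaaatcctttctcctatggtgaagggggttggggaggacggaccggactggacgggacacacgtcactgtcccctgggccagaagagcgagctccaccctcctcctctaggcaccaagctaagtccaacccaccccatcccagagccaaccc
Cldn16: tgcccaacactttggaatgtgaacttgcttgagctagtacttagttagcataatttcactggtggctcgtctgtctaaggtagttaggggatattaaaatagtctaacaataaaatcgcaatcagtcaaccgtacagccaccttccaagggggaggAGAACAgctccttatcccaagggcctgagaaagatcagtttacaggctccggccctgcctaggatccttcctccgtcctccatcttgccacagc
Cldn19: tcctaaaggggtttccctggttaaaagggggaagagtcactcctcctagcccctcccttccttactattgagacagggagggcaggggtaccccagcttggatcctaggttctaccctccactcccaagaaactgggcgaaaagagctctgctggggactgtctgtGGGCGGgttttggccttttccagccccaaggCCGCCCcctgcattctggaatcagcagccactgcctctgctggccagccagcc
The motifs searched, on both strands, were the AP-1 site TGANTCA, the Grainyhead-like site AACCNGTT, the glucocorticoid and mineralocorticoid receptor core AGAACA, the TATA box TATAAA and the GC box GGGCGG, and matches of different motifs did not overlap. Stretches were read for Cldn1, Cldn2, Cldn3, Cldn4, Cldn7, Cldn10, Cldn14, Cldn16 and Cldn19, and none was read for Cldn8. No claudin stretch read held the Grainyhead-like site, which 1.79% of all stretches hold. The TATA box (12.4% of all) was matched only before Cldn2. The Cldn4 stretch holds TGACTCA at 240 and again at 158 bases before the start and a GC box at 44, where 6.75% of 32851 mouse promoter stretches of this length hold an AP-1 site and 32.7% a GC box. It was the only claudin stretch read that had an AP-1 match. The Cldn3 stretch holds a GC box at 236, and the Cldn19 stretch GC boxes at 84 and 53. Of the stretches not shown, that of Cldn1 and 1 entry each of Cldn7 and Cldn10 also hold a GC box. A further entry each of Cldn7 and Cldn10 holds no match. The Cldn16 stretch holds AGAACA at 94, a match that 16.1% of all stretches have and that 1 Cldn14 entry and Cldn2 also have, in Cldn2 with a pair of matches that share a base. The motifs were chosen with the results known, and a match describes letters, not a bound site.

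In the thick ascending limb, Cldn16 rose and its partner Cldn19 did not pass. Cldn16, the channel protein for magnesium and calcium whose loss causes urinary wasting of both, read 9.28, 9.23, 9.25 and 9.25 in WT 1 to WT 4 and 9.58, 9.62, 9.52 and 9.54 in SPAK KO 1 to SPAK KO 4 (probe set 10434837). All SPAK KO arrays lay above all WT arrays, and the WT values were nearly equal. The WT level was 9.26 ± 0.02 (SD, n = 3). The difference in the 8-array fit was 0.32 ± 0.05 (SE, 1.24-fold, limma adjusted p = 0.00854), and it passed in 8 of the 8 refits that each dropped 1 array. Counting agreeing arrays once, as 3 WT against 1 SPAK KO, gave 0.31 with an adjusted p of 1, and a replicate block gave an adjusted p of 0.0517.

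Cldn19, which binds Cldn16 and is needed with it for the magnesium route, read 8.61, 8.49, 8.41 and 8.44 in WT and 8.73, 8.74, 8.77 and 8.69 in SPAK KO. The groups did not overlap, with WT 1 the nearest WT array to the SPAK KO values. The WT level was 8.50 ± 0.10 (SD, n = 3). The difference in the 8-array fit was 0.24 ± 0.05 (limma adjusted p = 0.0534). It passed in 1 of the 8 refits, without WT 1 (adjusted p = 0.0202). It also passed with arrays centred on their median (adjusted p = 0.012), with genes of mean under 6 left out (0.0233) and with trend and robust eBayes (0.0177).

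Cldn14, which acts on the Cldn16 and Cldn19 channel as a brake, was the claudin with the lowest difference. Its values were 6.51, 6.41, 6.28 and 6.31 in WT and 6.28, 6.04, 6.23 and 6.23 in SPAK KO, near the arrays' medians, so the probe set was dim. WT 3 and SPAK KO 1 shared the value 6.28, and the groups overlapped. The difference of −0.18 ± 0.07 did not pass (adjusted p = 0.204, 95% interval −0.34 to −0.02).

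Cldn10 was measured by probe sets whose accessions cover both of its forms, so the proximal and thick ascending limb forms cannot be told apart here. It read 11.30, 11.42, 11.44 and 11.43 in WT and 11.52, 11.58, 11.53 and 11.56 in SPAK KO. The groups did not overlap, but the gap between them was only 0.08. Its difference was 0.15 ± 0.05 (adjusted p = 0.147), and it passed only with trend and robust eBayes (0.0464). The second probe set of Cldn10 gave 0.13, with 11.19 to 11.31 in WT and 11.38 to 11.43 in SPAK KO. Another, named for both Dzip1 and Cldn10 and therefore not used, gave 0.11.

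**Figure D1:**
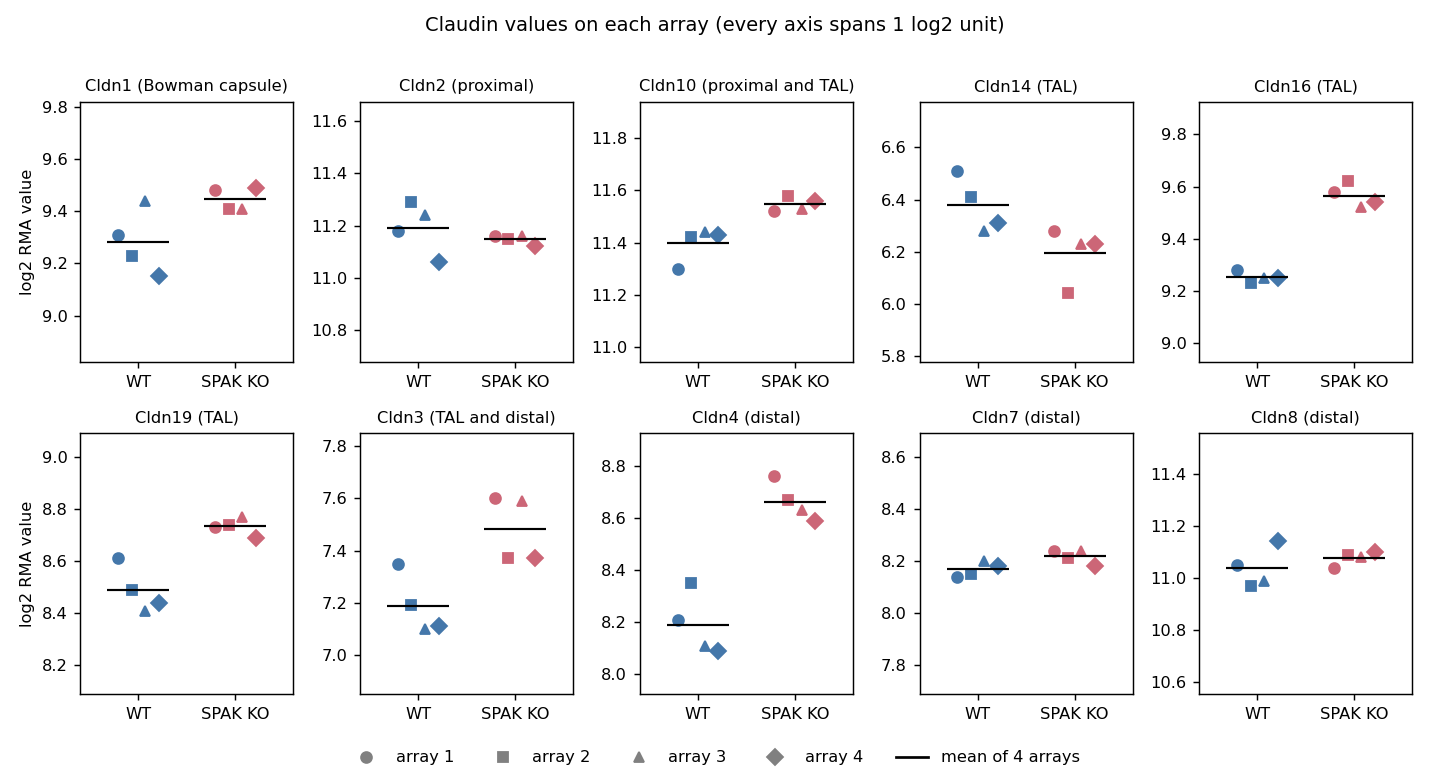
Log2 RMA value of each claudin (vertical axes, each spanning 1 log2 unit) on the WT (blue) and SPAK KO (red) arrays, with 1 marker shape per array number and the mean of 4 arrays as a line; TAL is the thick ascending limb. Cldn16 and Cldn4 are the called genes, at 9.52 to 9.62 and 8.59 to 8.76 on the SPAK KO arrays against 9.23 to 9.28 and 8.09 to 8.35 on the WT arrays.

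Of 7 measured markers of the thick ascending limb, 1 rose, the calcium-sensing receptor gene Casr (0.31 ± 0.06, in 2 of the 8 refits), 0 fell and 6 did not pass. Casr read 9.33, 9.28, 9.28 and 9.47 in WT and 9.69, 9.68, 9.65 and 9.59 in SPAK KO, all above WT. Their differences were above 0 for all 7, with a median of 0.16, and the Na-K-2Cl cotransporter gene Slc12a1 gave 0.24 ± 0.05 (adjusted p = 0.052). Averaged over the list, the WT range was 10.26 to 10.38 and the SPAK KO range 10.43 to 10.48.

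To set each claudin against its segment, the mean of the segment's markers was subtracted from the claudin on the same array, and 11 such pairs were compared by two-sided exact permutation tests of 4 against 4 arrays, whose smallest possible p is 0.0286. These exact tests, and those between claudins below, take the 8 arrays as independent. The close agreement of the SPAK KO arrays, and of WT 2 with WT 3, leaves that uncertain, so their p-values may be too small. The level of such a value depends on the probes, and only its change between groups is read. Relative to the thick ascending limb markers, Cldn16 was at −0.98, −1.03, −1.03 and −1.12 in WT and −0.86, −0.86, −0.91 and −0.90 in SPAK KO. These groups did not overlap, and the change was 0.16 (exact p = 0.0286, adjusted over the 11 pairs 0.105). Cldn14 went from −3.74, −3.85, −4.00 and −4.07 to −4.16, −4.44, −4.21 and −4.22, a change of −0.34 with the same p-values. That change includes the higher marker average in SPAK KO, since Cldn14 alone differed by −0.18 with overlapping groups. For Cldn19 the change was 0.09 (exact p = 0.257) and for Cldn10 −0.01, which turned positive with quantile normalization. After adjustment 0 of the 11 pairs passed, and 3 had the smallest possible p, where at least 7 at that p would have been needed for any to pass.

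Within the segment, claudins were also set against each other on each array, a comparison added after the values had been seen. Of 13 pairs within a segment, 6 did not overlap between genotypes and 0 passed after adjustment, for which at least 8 pairs at the smallest possible p would have been needed. Cldn14 minus Cldn16 was −2.77, −2.82, −2.97 and −2.95 in WT and −3.30, −3.58, −3.29 and −3.31 in SPAK KO, the widest change at −0.50 (exact p = 0.0286, adjusted over the 13 pairs 0.0619). Cldn14 minus Cldn19 changed by −0.43 with the same p-values, from −2.14 to −2.08 in WT to −2.70 to −2.45 in SPAK KO. Both changes include the higher values of the partner. Alone, Cldn16 differed by 0.32, Cldn19 by 0.24 and Cldn14 by −0.18, the last with overlapping groups. Cldn16 minus Cldn19 ranged from 0.67 to 0.83 in WT and from 0.75 to 0.88 in SPAK KO, so the channel partners kept overlapping values (change 0.07, exact p = 0.171).

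Among the claudins of the distal nephron and collecting duct, Cldn4 rose and Cldn7 and Cldn8 did not pass. Cldn4 read 8.21, 8.35, 8.11 and 8.09 in WT and 8.76, 8.67, 8.63 and 8.59 in SPAK KO (probe set 10534395). Every SPAK KO array lay above every WT array, with a gap of 0.24. The WT level was 8.18 ± 0.07 (SD, n = 3) and the difference 0.47 ± 0.07 (1.38-fold, adjusted p = 0.00797), passing in 8 of the 8 refits. Counting agreeing arrays once gave 0.48 with an adjusted p of 1.

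Cldn8, which recruits Cldn4 to the junction of collecting duct cells, read 11.05, 10.97, 10.99 and 11.14 in WT and 11.04, 11.09, 11.08 and 11.10 in SPAK KO. The SPAK KO values lay inside the WT range, and the difference was 0.04 ± 0.05 (95% interval −0.08 to 0.15). Cldn7, a broadly expressed claudin of the collecting duct that also lies along the lateral cell membrane, read 8.14, 8.15, 8.20 and 8.18 against 8.24, 8.21, 8.24 and 8.18, with overlapping groups and a difference of 0.05 ± 0.04 (95% interval −0.05 to 0.15). Set against Cldn8 on the same array, Cldn4 was −2.84, −2.62, −2.88 and −3.05 in WT and −2.29, −2.42, −2.45 and −2.50 in SPAK KO. The change of 0.43 (exact p = 0.0286, adjusted over the 13 pairs 0.0619) left the groups apart, as did that of 0.42 against Cldn7.

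Cldn3, a barrier-forming claudin, read 7.35, 7.19, 7.10 and 7.11 in WT and 7.60, 7.37, 7.59 and 7.37 in SPAK KO. The groups were apart by only 0.02, between WT 1 and SPAK KO 2. The WT level was 7.20 ± 0.13 (SD, n = 3). The difference in the 8-array fit was 0.30 ± 0.08 and did not pass (adjusted p = 0.0886). It passed with arrays centred on their median (0.35, adjusted p = 0.0287) and with trend and robust eBayes (0.0499).

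Of 9 connecting tubule and principal cell markers, 1 was called higher, the epithelial sodium channel subunit gene Scnn1b (0.28 ± 0.05), and 2 lower, the water channel genes Aqp2 (−0.29 ± 0.06) and Aqp4 (−0.35 ± 0.07). These calls held in 2, 1 and 1 of the 8 refits. Aqp4 was dim, at 5.48 to 5.75 in WT and 5.09 to 5.31 in SPAK KO, below the arrays' medians. The water channel gene Aqp3, named after its values were seen, went the other way. It was higher on every SPAK KO array (0.23 ± 0.06) but did not pass (limma adjusted p = 0.0761). Of the list, 3 genes had groups apart upward and 2 downward, where 6.9% and 5.71% of all genes had. The list averaged 9.24 to 9.34 in WT and 9.29 to 9.33 in SPAK KO, so its groups overlapped. Relative to it, Cldn4 was at −1.03, −0.98, −1.22 and −1.25 in WT and −0.58, −0.63, −0.66 and −0.74 in SPAK KO, a change of 0.47 (exact p = 0.0286, adjusted over the 11 pairs 0.105). Cldn3 changed by 0.29 (exact p = 0.0857), Cldn7 by 0.05 and Cldn8 by 0.04.

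Intercalated cells share the collecting duct epithelium with principal cells. Of their 7 markers, 5 were called higher and 0 lower, where 1.39% and 0.682% of all genes were. These were the anion exchanger gene Slc26a4 (0.65), the proton pump subunit genes Atp6v1g3 (0.52), Atp6v1b1 (0.39) and Atp6v0d2 (0.36), and the ammonia transporter gene Rhbg (0.31). The calls of Slc26a4, Atp6v1g3 and Atp6v0d2 held in 8 of the 8 refits, that of Rhbg in 4 and that of Atp6v1b1 in 2. The 2 not called went in opposite directions, Foxi1 at 0.38 ± 0.10 and the anion exchanger gene Slc4a1 at −0.15 ± 0.11. Slc4a1 was below the mean of the WT arrays on every SPAK KO array. The list of all 7 averaged 9.34 to 9.61 in WT and 9.81 to 9.88 in SPAK KO. Set against that list, Cldn4 read −1.13, −1.14, −1.39 and −1.52 in WT and −1.12, −1.18, −1.19 and −1.22 in SPAK KO. Those groups overlapped, and the change was 0.12. Cldn3 changed by −0.06 with overlapping groups, while Cldn7 and Cldn8 changed by −0.30 and −0.31 and were lower on every SPAK KO array. Alone, Cldn7 and Cldn8 differed by 0.05 and 0.04, so their lower relative values restate the higher average of the list. The comparison with the intercalated list was added after the values had been seen. The part of intercalated cells in the rise of Cldn4 was not tested beyond these values. In the distal convoluted tubule, which adjoins these segments, 2 of 6 markers fell, Pvalb (−1.30) and Trpm6 (−0.63), and 0 rose, with a list average of 9.32 to 9.44 in WT and 8.98 to 9.07 in SPAK KO.

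**Figure D2:**
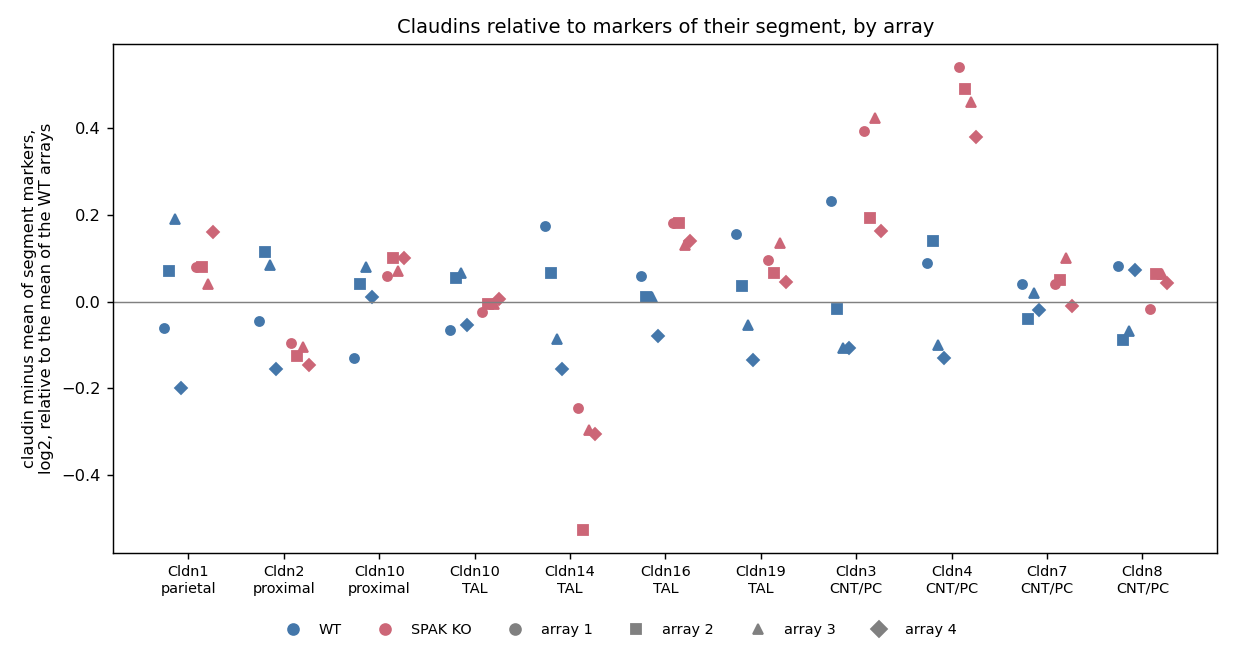
Each claudin minus the mean of the markers of the segment named under it, on the same array, in log2 units relative to the mean of the WT arrays (vertical axis), with WT arrays in blue and SPAK KO arrays in red; TAL is the thick ascending limb and CNT/PC the connecting tubule with principal cells. Cldn14 (−0.34), Cldn16 (0.16) and Cldn4 (0.47) are the pairs whose groups did not overlap.

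In the proximal tubule and the Bowman capsule no claudin was called. Cldn2, the cation and water pore of the proximal tubule, read 11.18, 11.29, 11.24 and 11.06 in WT and 11.16, 11.15, 11.16 and 11.12 in SPAK KO. The SPAK KO values lay inside the WT range, and the difference of −0.05 ± 0.06 (95% interval −0.17 to 0.08) turned to 0.01 with arrays centred on their median. Cldn2 minus Cldn10 ranged from −0.37 to −0.12 in WT and from −0.44 to −0.36 in SPAK KO, a change of −0.20 with groups that overlapped (exact p = 0.0571). Of 10 proximal tubule markers, 1 was called higher, the water channel gene Aqp1 (0.34 ± 0.06, in 5 of the 8 refits), and 0 lower, with a list average of 12.36 to 12.43 in WT and 12.46 to 12.48 in SPAK KO. Relative to that list, Cldn2 changed by −0.12 (exact p = 0.143) and Cldn10 by 0.08 (exact p = 0.0857).

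Cldn1 read 9.31, 9.23, 9.44 and 9.15 in WT and 9.48, 9.41, 9.41 and 9.49 in SPAK KO. WT 3 reached into the SPAK KO range, and the difference of 0.16 ± 0.07 did not pass (adjusted p = 0.219). Of 4 parietal cell markers 0 were called, with Scin at 0.25 ± 0.09 and Akap12 at 0.14 ± 0.08, and Cldn1 relative to that list changed by 0.09 (exact p = 0.4).

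**Figure D3:**
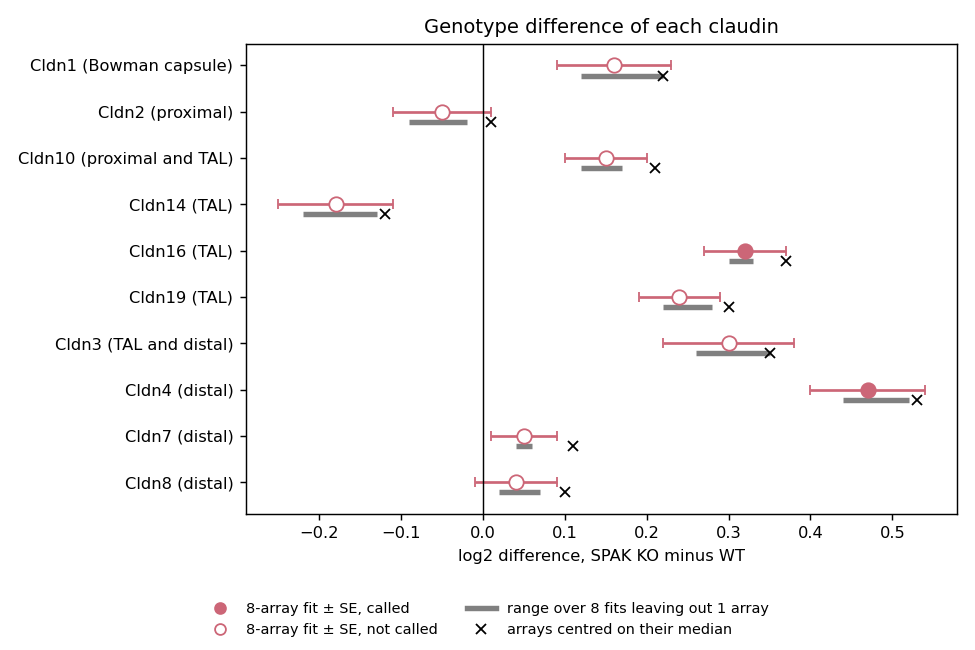
Log2 difference (SPAK KO minus WT, horizontal axis) of each claudin in the 8-array fit with its SE, filled where the adjusted p was under 0.05; grey bars span the 8 refits that each dropped 1 array and crosses mark arrays centred on their median. Cldn4 (0.47) and Cldn16 (0.32) are filled, Cldn14 (−0.18) is lowest, and the cross of Cldn2 lies on the other side of 0.

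Genes next to the claudins were read as well. Cldn16 lies between Cldn1 and Tmem207, a transmembrane protein gene, in the order of measured genes on chromosome 16. Tmem207 read 8.31, 8.32, 8.36 and 8.39 in WT and 8.51, 8.58, 8.69 and 8.57 in SPAK KO, and it was called higher (0.24 ± 0.05, adjusted p = 0.0474), though in only 1 of the 8 refits. The next genes on either side, P3h2 beyond Cldn1 (0.08 ± 0.05) and Il1rap beyond Tmem207 (−0.17 ± 0.05), did not pass. Around the Cldn4 and Cldn3 pair on chromosome 5, Mettl27 (0.07 ± 0.06) and Wbscr25 (−0.11 ± 0.06) did not pass. Beside Cldn14, also on chromosome 16, Chaf1b, which encodes a subunit of a chromatin assembly factor, read 6.58, 6.70, 6.80 and 6.60 in WT and 6.34, 6.21, 6.30 and 6.29 in SPAK KO. It was lower on every SPAK KO array and fell by 0.38 ± 0.06 (adjusted p = 0.0133, in 8 of the 8 refits). Sim2, on the other side of Cldn14, gave 0.23 ± 0.06 and did not pass (adjusted p = 0.0672). Dzip1, next to Cldn10 on chromosome 14, had the widest difference of the neighbours, 0.54 ± 0.13. It was higher on every SPAK KO array but did not pass (limma adjusted p = 0.0715). Tmem207 and Chaf1b were the only called genes, besides claudins, among the measured neighbours up to 2 places from each of the 10. Of all genes, 2.08% were called, but no share was computed for the neighbours, so the figures are not compared. Whether place in the genome bears on these differences was not tested. The uncalled neighbours named here were picked after their values were seen.

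Outside the 10, no claudin was called. Of 17 other claudins, 0 rose and 0 fell in limma, and 0 had an unadjusted p under 0.05. Among the 10 listed claudins 7 had such a limma p, as did 3806 of all 19938 genes. The 17 averaged 5.39 to 5.50 in WT and 5.39 to 5.46 in SPAK KO, below the arrays' medians, so they were dim as a list. Their median difference was −0.04, and none had groups apart. The brightest in WT was Cldn12, at 10.08 ± 0.23 (SD, n = 3), named after the values were seen. The 2 with the smallest p were Cldn5, the claudin of blood vessel endothelium, at 0.14 ± 0.07, and Cldn20 at −0.20 ± 0.11. Cldn5 read 7.94, 7.97, 7.77 and 7.80 in WT and 8.06, 8.12, 7.99 and 7.89 in SPAK KO, and the groups overlapped. Of 6 endothelial markers 0 were called (Emcn −0.12, Ehd3 −0.15), with a list average of 9.17 to 9.20 in WT and 9.11 to 9.20 in SPAK KO.

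Among 25 measured partners of claudins at the junction, 1 rose, 0 fell and 24 did not pass. Of all genes, 1.39% rose and 0.682% fell. Ildr1, an angulin that holds tricellular junctions together, read 8.45, 8.35, 8.46 and 8.46 in WT and 8.75, 8.64, 8.65 and 8.80 in SPAK KO. Its groups were apart, and the difference was 0.28 ± 0.06 (adjusted p = 0.0324), in 2 of the 8 refits. Epcam, which binds and stabilises Cldn7, gave 0.22 ± 0.05 (adjusted p = 0.0617). The scaffold gene Tjp1 gave 0.14 ± 0.05, occludin (Ocln) 0.15 ± 0.06 and Mpp5, of the Crumbs polarity complex, −0.19 ± 0.05. The list's median was 0.04. Groups were apart upward for 6 partners and downward for 1, where 6.9% and 5.71% of all genes were.

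Of 13 measured genes known to act on claudins, 2 rose and 0 fell, where 1.39% and 0.682% of all genes did. Casr is given above, and the membrane protease gene St14 gave 0.29 ± 0.06 (adjusted p = 0.0439), in 1 of the 8 refits. St14 read 8.75, 8.61, 8.66 and 8.85 in WT and 9.07, 8.98, 8.95 and 9.02 in SPAK KO, with the groups apart. The list's median was 0.00. Grhl2, a transcription factor that drives Cldn4 and Cldn3 in collecting duct epithelium, gave 0.16 ± 0.10 (adjusted p = 0.401). The kinase gene Wnk4 gave −0.08 ± 0.07 and Klhl3, of the ubiquitin ligase that targets both WNK kinases and Cldn8, −0.07 ± 0.07. The parathyroid hormone receptor gene Pth1r, whose signal acts on Cldn14, gave 0.00 ± 0.04. Grhl2, Wnk4, Klhl3, Pth1r, Slc12a1, Epcam, Tjp1, Ocln and Mpp5 were named for their role after their values were seen.

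**Figure D4:**
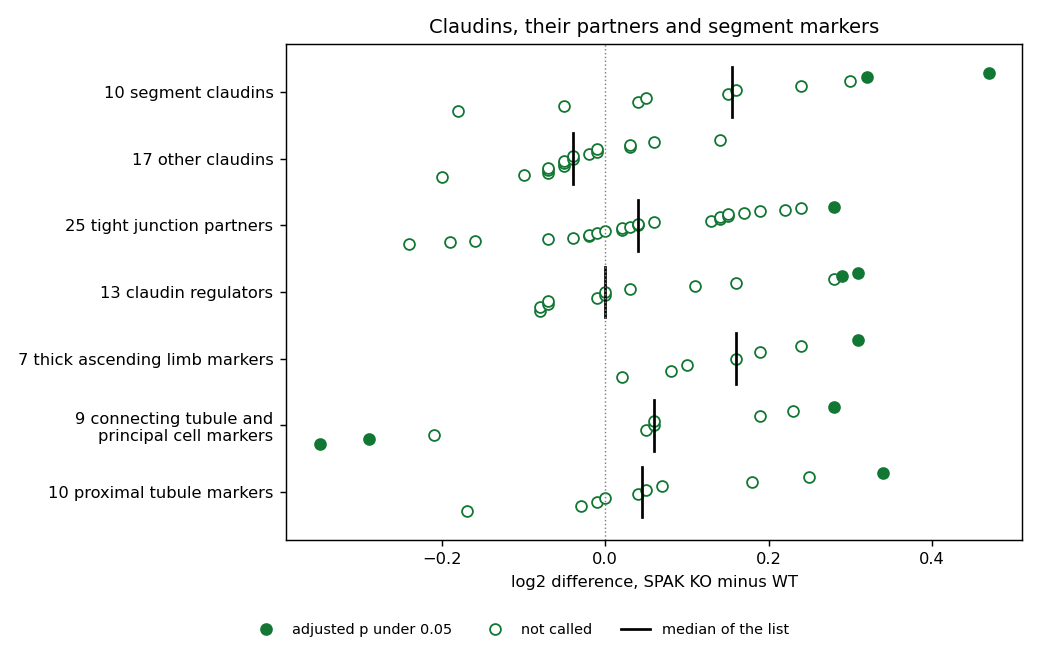
Log2 difference (SPAK KO minus WT, horizontal axis) of single genes in the 10 claudins, the other claudins, their partners and regulators and the segment marker lists, filled where the adjusted p was under 0.05, with each list's median as a bar. The 10 claudins have a median of 0.16, as do the thick ascending limb markers, and the 17 other claudins one of −0.04.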

How the data were processed

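Total RNA from dissected renal cortex, 6 µg per sample, was hybridised to 1-colour Affymetrix arrays, 1 per labelled mouse (4 WT, 4 SPAK KO). The authors deposited log2 values, 1 per probe set and array, and the submitters' processing notes name RMA and Expression Console, a method that background-corrects, quantile-normalizes and summarises probes. Neither a version nor a build was given in those notes. No detection call comes with such values, and the number of arrays limits precision. Of 35556 probe sets, 21789 named exactly 1 gene symbol (platform annotation), and the one with the highest mean was used for each of 19938 genes. RefSeq's GRCm38.p6 tables served for gene order and promoters only.

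Genotype alone entered lmFit and eBayes (limma 3.58.1, R 4.3.3), with genes called at a Benjamini-Hochberg adjusted p under 0.05 over all genes. The fit was tested on simulated data. The simulated arrays were independent, so that test does not cover the close agreement among the real arrays. Exact permutation tests ran in Python 3.11.15. Other settings were normalization, a filter on means under 6, probe set averaging, trend and robust eBayes (statmod 1.5.0), arrays counted once, a replicate block and leaving out each array. The members and lists were chosen with earlier results of these data known. The text names all 10 claudins, of each list the called genes or else those with the smallest p, and genes picked later where the text says so. Whether equal replicate numbers pair the arrays was checked (see the closing section).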

Additional observations from a re-analysis of the deposited data

Results flagged for a closer look

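In 70 groups of 4 arrays checked, 3 held a value set far from the other 3, where chance gives about 1 in 20. Cldn2 read 11.12 on SPAK KO 4, below the other SPAK KO arrays by 0.859 of the group's range, which was narrow (0.04). Cldn10 minus Cldn16 read 2.02 on WT 1, below the other WT arrays (2.18 to 2.20). Cldn14 minus Cldn16 read −3.58 on SPAK KO 2, where Cldn14 had its lowest value, 6.04.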

How the results depend on the processing

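The differences of the 10 claudins kept their direction in every setting run except that of Cldn2, which was 0.01 with arrays centred on their median. Of the 10 claudins, 4 were called with arrays centred on their median (adding Cldn3 and Cldn19), 5 with trend and robust eBayes (adding Cldn10 too), 3 with means under 6 left out (adding Cldn19), 0 with agreeing arrays counted once, 1 (Cldn4) with the replicate block and 2 to 3 when 1 array was left out. Under the block, Cldn16 missed the threshold (adjusted p = 0.0517). Same-numbered arrays did not deviate together (correlations −0.05, 0.08, −0.13 and 0.13, and 2 of 4 WT arrays correlated best with their own number), so the numbers are not taken as pairs. The other 17 claudins gave 0 calls in every setting. Tight junction partners gave 3 calls with centring, 3 with means under 6 left out, 3 with trend and robust eBayes, 2 with cyclic loess, 0 with WT 2 and WT 3 averaged, 0 with agreeing arrays counted once, 0 with the block and 0 to 2 when 1 array was left out. Regulators gave 1 call with quantile normalization, 1 with cyclic loess, 0 with WT 2 and WT 3 averaged, 0 with agreeing arrays counted once, 0 with the block and 0 to 2 when 1 array was left out. Segment markers gave 12 calls, 7 with WT 2 and WT 3 averaged, 0 with agreeing arrays counted once, 5 with the block and 5 to 16 when 1 array was left out. Cldn10 minus the thick ascending limb markers (−0.0076) was 0.0072 with quantile normalization, 0.01 with WT 2 and WT 3 averaged and −0.03 to 0.01 when 1 array was left out. Cldn7 minus Cldn8 (0.01) was −0.0086 with quantile normalization, −0.0024 with cyclic loess and −0.02 to 0.04 when 1 array was left out. The cause of these shifts was not tested. With agreeing arrays counted once, limma called 0 of all genes, 618 had an unadjusted p under 0.05 and the smallest adjusted p was 0.0583; that fit has 1 SPAK KO sample, assumed to vary like WT. Arrays carry no background level, so the level of dim probe sets such as Cldn14 has no stated floor.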
